A study of Mus musculus with 25 samples.

Results

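The data compare wild-type (WT) mouse lung at a pair of times after injury with bleomycin, Day 14 (n = 5 mice) against Day 7 (n = 4 mice). All arrays whose titles name a WT mouse on one of these days were taken, which is 9 of the 25 arrays of the series. The other 16 arrays are WT lung on Day 0 (n = 4) and lung of FP-KO mice, which lack FP, the receptor for prostaglandin F2α, on Day 0, Day 7 and Day 14 (n = 4 each). All mice were female. Bleomycin went into the trachea once, on Day 0, at 1 mg/kg in 40 ul of saline, so that every lung of Day 7 and Day 14 had received it. Strain and age are not given in the sources used here, nor whether Day 0 lungs received saline. Total RNA of the lung was read on Affymetrix mouse 430 2.0 arrays, on which a probe set (a group of short DNA probes for 1 transcript) gives an intensity. The titles number the mice, so an array is taken as 1 mouse.

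Bleomycin breaks DNA, and in the rodent lung it first kills cells of the thin alveolar wall and draws in inflammatory cells. In the following weeks fibroblasts lay down collagen and other matrix while surviving epithelial cells divide and spread over the bared surface. Alveolar type 1 cells are the flat cells across which gas is exchanged, and alveolar type 2 cells make surfactant and can turn into type 1 cells. The first week is commonly taken as the inflammatory stage of this model and the second as the start of the fibrotic stage. The comparison asks which of the changes present on Day 7 were smaller, as large or larger on Day 14, and which appeared only then.

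The genes of the lung's own cells marked these samples as lung: the surfactant gene Sftpc had an intensity between 31628 and 34530 in all 9 arrays. The ratio of 3′ to 5′ Actb probe sets was 1.23 to 1.32 on Day 7 and 1.21 to 1.40 on Day 14. The 5 Day 14 arrays fell into 2 sets. On the second principal component of all 25 arrays, which held 16.9% of the variance, Day 14 No. 1 to 3 lay between -28.5 and -27.7, Day 14 No. 4 and 5 at -1.35 and 2.28, and the Day 7 arrays between 7.89 and 11.5. The FP-KO Day 14 arrays were split too, with No. 1 and 2 at -28.3 and -30.1 and No. 3 and 4 at 0.0731 and 1.48. The WT Day 7 arrays were not uniform either. On the first component, which held 42% of the variance, Day 7 No. 1 and 2 lay at 29.9 and 33.9, and Day 7 No. 3 and 4 at 17.6 and 22.4. What sets these Day 7 arrays apart was not tested. The probe set for 18S ribosomal RNA had a deposited intensity of 1185, 172 and 552 in WT Day 14 No. 1 to 3, of 93.1 and 116 in No. 4 and 5, and of 60.9 to 244 on Day 7. Between the sets 1084 of 12062 genes differed (8.99%), 535 higher and 549 lower in No. 1 to 3. The labels name no batch or date that would separate them, and the part of RNA quality in the split was not tested. Each result is therefore given over all 5 arrays and, where it matters, in each set. Intensities below are after quantile normalization, with values under 24.3 set to 24.3, and changes are differences of log2 intensity (Day 14 minus Day 7) with the standard error (SE) of the fit after ±.

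From Day 7 to Day 14 the genes that fell most included chemokine and injury genes, and those that rose most included genes of the extracellular matrix and of basement membranes. Markers of alveolar type 1 cells rose by less, the largest change among them being 0.92. Over the 5 Day 14 arrays 716 of 12062 genes tested passed (5.94%), that is, had an adjusted p under 0.05 by limma with Benjamini-Hochberg adjustment. Of these, 430 rose (3.56%) and 286 fell (2.37%). Each count of a gene list below is to be read beside these shares, and no list was tested as a whole. Most changes were small: by 1 or more on the log2 scale there were 19 rises and 22 falls, and the median change of all genes was -0.00181. For 1368 genes (11.3%) the 4 Day 7 and the 5 Day 14 values did not overlap, 724 higher and 644 lower on Day 14, and 562 of them passed. With arrays set to a common median in place of quantile normalization, 370 genes rose and 78 fell, which moved the share of rises among the calls from 60.1% to 82.6%. The count rested on single arrays: it was 193, 252 and 406 without Day 7 No. 1, 2 and 4, 198, 259 and 278 without Day 14 No. 1, 2 and 3, and 1172 and 1445 without Day 14 No. 4 and 5.

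Set apart, Day 14 No. 1 to 3 differed from Day 7 in 3115 genes (25.8%), 1578 higher and 1537 lower. Day 14 No. 4 and 5 differed in 21 genes (0.174%), 15 higher and 6 lower, while 1302 genes had an unadjusted p under 0.05 there. The median SE of a change was 0.133 in the first and 0.151 in the second set. All 716 genes that passed had the same sign in both sets, and in 122 of them the sets also differed from each other. These genes were chosen over the same 5 arrays, and both sets are compared with the same 4 Day 7 arrays. Opposite signs were therefore unlikely, and the agreement in sign is no separate check. Where a call was lost with an array left out, the arrays are named below beside the gene, with the highest adjusted p in brackets. The genes not tried in this way are listed in the last section. Those that passed over all 5 arrays and in each set with the same sign numbered 21 (0.174%). They were Ccl7, Ccl17, Ankrd1, Cd80, Dis3 and Gsto1, which fell, and C1qtnf3, Kng1, Fmod, Thbs3, Nnat, Lama3, Lamb3, Dag1, Rtkn2, Myh14, Nxpe4, Cdk19, Ptprm, Cyb5r3 and Ube2h, which rose.

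**Figure D1:**
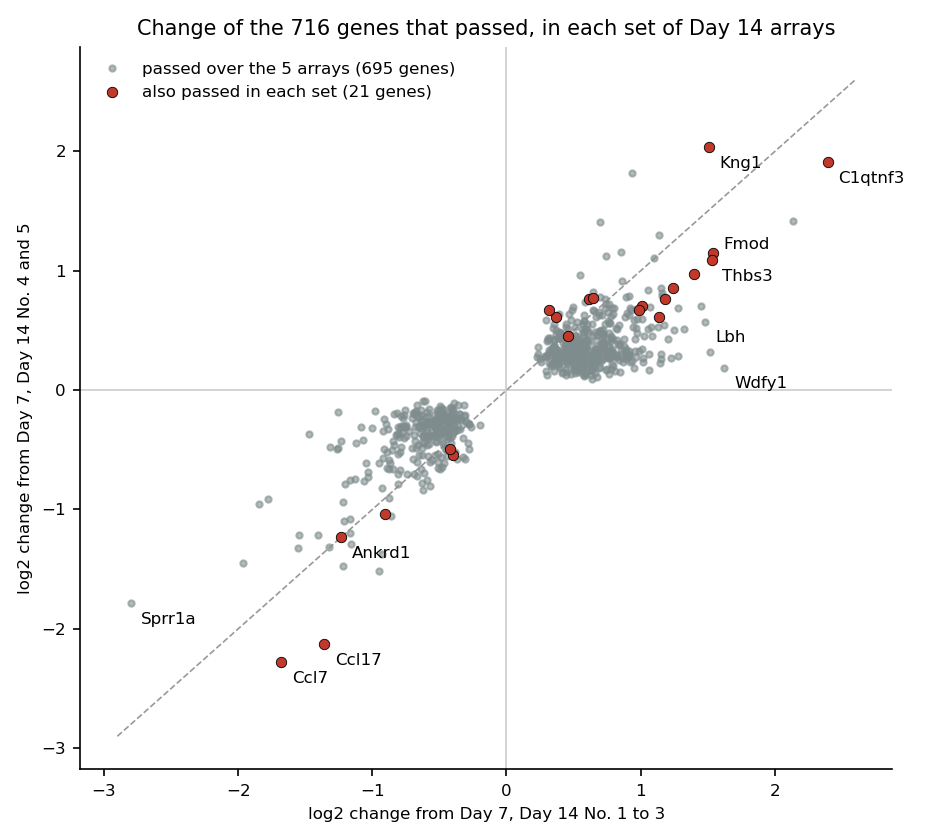
Each point is 1 of the 716 genes that passed over the 5 Day 14 arrays, with its log2 change from Day 7 in Day 14 No. 1 to 3 (horizontal) and in No. 4 and 5 (vertical); red points are the 21 genes that also passed in each set. No point lies in a quadrant of opposite signs, which the choice of genes over the same 5 arrays makes unlikely. Wdfy1 and Lbh lie far below the dashed line of equal change.

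Genes of secreted and matrix proteins were among the largest rises. C1qtnf3, which encodes a secreted C1q-like protein, had intensities of 38.4, 24.3, 66.8 and 55.4 in the 4 Day 7 arrays and of 185, 265, 237, 153 and 172 in the 5 Day 14 arrays. All Day 14 lungs lay above all Day 7 and Day 0 lungs, and the change was 2.20 ± 0.26 (adjusted p = 0.00011, limma), with 2.39 in No. 1 to 3 and 1.91 in No. 4 and 5. Fmod encodes fibromodulin, a proteoglycan that binds collagen fibrils. It had intensities of 332, 436, 370 and 500 on Day 7 and of 973, 1291, 1303, 998 and 805 on Day 14, a change of 1.38 ± 0.17 (adjusted p = 0.00013). The other Fmod probe sets, all above the filter, rose by less, between 0.83 ± 0.20 and 1.11 ± 0.17. Some of them lay under the limit of 1 for a late gene given below. With a higher floor, at the 40th percentile, the change of C1qtnf3 was 1.36. Thbs3, for the matrix protein thrombospondin 3, was low on Day 7 only: it read 404, 463, 770 and 558 then, 1851, 1295, 1525, 1061 and 1210 on Day 14, and between 987 and 1173 on Day 0. Its change was 1.36 ± 0.16 (adjusted p = 0.00011), and it held in both sets (1.53 and 1.09).

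Lama3 and Lamb3 encode a pair of chains of the laminin by which epithelial cells hold to the basement membrane. Lama3 had intensities of 859, 905, 1210 and 1015 on Day 7 and of 2827, 2302, 1960, 1909 and 1681 on Day 14, and Lamb3 went from between 1045 and 1370 to between 2057 and 3046. Neither gene's groups overlapped. Over all probe sets of Lama3 the mean change was 0.60. The changes were 1.09 ± 0.13 for Lama3 (adjusted p = 0.00011) and 1.01 ± 0.13 for Lamb3 (adjusted p = 0.00013), and both were smaller in No. 4 and 5 (0.86 and 0.77) than in No. 1 to 3 (1.24 and 1.18), a difference between sets that did not pass for either (adjusted p = 0.13 and 0.099). Dag1, for dystroglycan, a cell-surface receptor of laminin, rose by 0.93 ± 0.12 (adjusted p = 0.00019). Its change of 1.14 in No. 1 to 3 and of 0.61 in No. 4 and 5 passed in each set, and the sets differed (adjusted p = 0.0019).

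The collagen chains that passed were those of type IV collagen, the network collagen of basement membranes. Of 23 fibrillar and network collagen genes tested, 3 rose and 0 fell, with a median change of 0.288, which was 0.388 in No. 1 to 3 and 0.0563 in No. 4 and 5. Col4a4 rose by 0.59 ± 0.12, Col4a2 by 0.46 ± 0.10 and Col4a5 by 0.49 ± 0.14. The call of Col4a5 without Day 7 No. 1, 2 or 3 or Day 14 No. 1, 2, 3 or 5 (0.131) ended, with the highest adjusted p in brackets. Col1a1, a chain of type I collagen and named here after its values were seen, had intensities of 4511, 5133, 5421 and 5542 on Day 7 and of 10498, 12296, 9943, 5835 and 4887 on Day 14. It was about as high in No. 4 and 5 as on Day 7 and higher in No. 1 to 3, with changes of 0.06 and 1.08, a difference between sets that passed (adjusted p = 0.0043). Its change over 5 arrays was 0.67 ± 0.23 and did not pass (adjusted p = 0.081). The summed intensity of the 23 genes was between 107300 and 118100 on Day 7, between 135800 and 145400 in Day 14 No. 1 to 3, and 119800 and 121200 in No. 4 and 5.

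Among 31 genes of elastic fibres and other matrix 6 rose and 0 fell (median 0.149, with 0.336 in No. 1 to 3 and 0.0711 in No. 4 and 5). Besides Fmod and Thbs3 they were Ltbp2, for a matrix protein of elastic fibres, at 0.70 ± 0.20, Fbln5, which helps to assemble those fibres, at 0.66 ± 0.15, and Sparc and Aspn. The Ltbp2 call was lost without Day 7 No. 1, 2, 3 or 4 or Day 14 No. 1, 2 or 3 (0.0963). The Fbln5 call was lost without Day 7 No. 1 (0.0535). Proteases and their inhibitors moved in unlike directions, and of 25 genes 3 rose and 1 fell. Mmp2, for gelatinase A, had intensities of 2836, 2926, 3749 and 3526 on Day 7 and of 6249, 6196, 6664, 4811 and 4986 on Day 14, and rose by 0.82 ± 0.19 (adjusted p = 0.013). The call of Mmp2 without Day 7 No. 1 (0.059) ended, with the highest adjusted p in brackets. Mmp11, for stromelysin-3, rose by 0.85 ± 0.17, and Timp3, for a metalloproteinase inhibitor bound to matrix, by 0.42 ± 0.11. The call of Timp3 without Day 7 No. 1, 3 or 4 or Day 14 No. 2 or 3 (0.0725) ended, with the highest adjusted p in brackets.

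Timp1, for a secreted metalloproteinase inhibitor, went the other way. It had intensities of 5534, 7393, 3398 and 3795 on Day 7 and of 1435, 2544, 2651, 2376 and 1837 on Day 14, so that no Day 14 lung reached the lowest Day 7 lung, while Day 0 lungs lay between 267 and 347. It fell by 1.18 on the log2 scale (SE 0.26, adjusted p = 0.013), by 1.17 in No. 1 to 3 and by 1.20 in No. 4 and 5. The call of Timp1 without Day 7 No. 1 or 2 (0.061) ended, with the highest adjusted p in brackets. Of 27 genes of the TGF-beta family and its targets 3 rose and 1 fell, against 3.56% and 2.37% of all genes. Their median was 0.0389, which turned to -0.0442 in No. 4 and 5. Tgfb3, Bmp4 and Inhbb, all ligands of the family, rose by 0.45 ± 0.11, 0.58 ± 0.14 and 0.54 ± 0.11, and Tgfbi, for a matrix protein induced by TGF-beta, fell by 0.77 on the log2 scale (SE 0.15). The other Tgfbi probe sets changed by less, between -0.41 ± 0.14 and -0.58 ± 0.15. The Tgfb3 call was lost without Day 7 No. 1, 3 or 4 or Day 14 No. 1, 2 or 3 (0.0777). The Bmp4 call was lost without Day 7 No. 2 or Day 14 No. 1 (0.0722). Contractile and myofibroblast genes gave 0 calls among 14 tested by limma, against 5.94% of all genes, with 4 at an unadjusted p under 0.05. Their median of -0.0401 was 0.0757 in No. 1 to 3. Acta2, for smooth muscle actin, and Cald1, for caldesmon, had changes of -0.27 ± 0.12 (adjusted p = 0.17) and -0.27 ± 0.10 (adjusted p = 0.10).

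**Figure D2:**
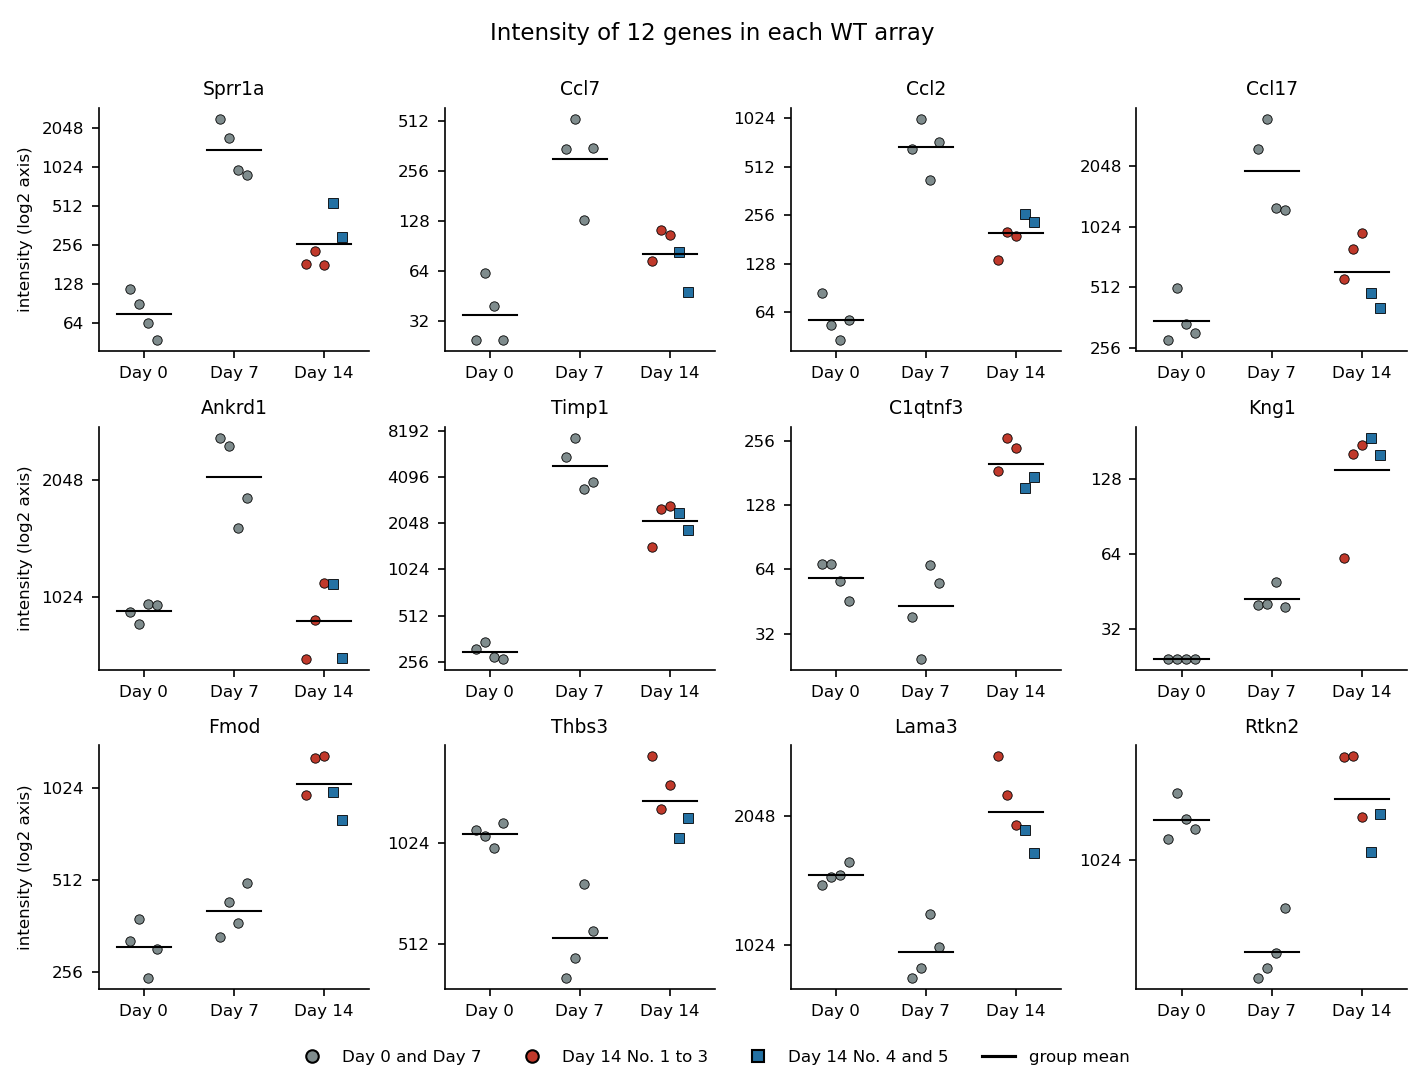
Intensity (log2 axis) of 12 genes in the 4 Day 0, 4 Day 7 and 5 Day 14 WT arrays; points are arrays, blue squares are Day 14 No. 4 and 5, and bars are group means of log2 values. In each panel the Day 14 points lie on one side of all Day 7 points: below for Sprr1a, Ccl7, Ccl2, Ccl17, Ankrd1 and Timp1, above for C1qtnf3, Kng1, Fmod, Thbs3, Lama3 and Rtkn2.

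Alveolar type 1 cell genes were higher on Day 14 than on Day 7, at a median difference from Day 0 of 0.00192. All 20 type 1 markers tested were higher on Day 14 than on Day 7, 10 passed, and 0 fell, against 3.56% of all genes that rose. The median change was 0.284, with 0.326 in No. 1 to 3 and 0.323 in No. 4 and 5. Their summed intensity was between 172600 and 177400 on Day 0 and between 136100 and 148000 on Day 7. It was between 175200 and 186900 in Day 14 No. 1 to 3 and 170200 and 173800 in No. 4 and 5, so that no Day 14 lung overlapped a Day 7 lung in either set. In whole lung, more cells of a type and more RNA per cell cannot be told apart.

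Rtkn2, a type 1 marker, had intensities of 643, 669, 710 and 847 on Day 7 and of 1530, 1534, 1210, 1057 and 1226 on Day 14. Its change was 0.86 ± 0.12 (adjusted p = 0.00053), it passed in both sets, and on Day 0 it lay between 1110 and 1327. Cldn18, for the main alveolar claudin of tight junctions, rose by 0.92 ± 0.15 (adjusted p = 0.0018), by 1.17 in No. 1 to 3 and by 0.54 in No. 4 and 5, where it did not pass. Spock2, for a secreted proteoglycan, rose by 0.73 ± 0.16 (adjusted p = 0.012), Igfbp2, for an IGF binding protein, by 0.68 ± 0.12, Aqp5, for the water channel aquaporin 5, by 0.60 ± 0.09, and Ager, for the receptor RAGE, by 0.42 ± 0.07. Without quantile normalization the change of Ager was 0.26 and did not pass (adjusted p = 0.10). Igfbp2 stood above its Day 0 values on Day 7 too: 2276 to 2943 on Day 0, 3716 to 4656 on Day 7 and 6233 to 7026 on Day 14. The call of Spock2 without Day 7 No. 1 (0.0546) ended, with the highest adjusted p in brackets.

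Among 21 type 2 cell markers 6 rose and 0 fell (median 0.286). Muc1, for a cell-surface mucin, had intensities of 2076, 2435, 3348 and 3009 on Day 7 and of 5046, 4944, 4954, 4500 and 3902 on Day 14, and rose by 0.80 ± 0.13 (adjusted p = 0.0012). Etv5, for a transcription factor needed to keep the type 2 state, rose by 0.72 ± 0.17, Ppp1r14c, for an inhibitor of protein phosphatase 1, by 0.48 ± 0.14, and Slc34a2, for the phosphate carrier of type 2 cells, by 0.47 ± 0.12. The Etv5 call was lost without Day 7 No. 1 or 2 or Day 14 No. 1 (0.0759). The Ppp1r14c call was lost without Day 7 No. 1, 2 or 4 or Day 14 No. 1, 2, 3 or 5 (0.16). The Slc34a2 call was lost without Day 7 No. 1 or 2 or Day 14 No. 1 or 3 (0.0881). The summed intensity of the 21 was 250100 to 262500 on Day 0, 224000 to 267800 on Day 7 and 272800 to 289600 on Day 14. Genes of injured transitional epithelium went down where they changed: of 19 tested 3 fell and 0 rose (median -0.242). Sprr1a, a small proline-rich protein of the cornified envelope and of stressed epithelium, fell most of all genes. It had intensities of 2411, 1726, 978 and 890 on Day 7, of 184, 233, 181, 537 and 298 on Day 14, and of 47.5 to 119 on Day 0. The change was -2.39 ± 0.40 (adjusted p = 0.0018), with -2.80 in No. 1 to 3 and -1.79 in No. 4 and 5, where it did not pass (adjusted p = 0.14).

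Endothelial genes rose in part. Of 35 tested 5 rose and 1 fell (median 0.187), and their summed intensity was 164400 to 172000 on Day 0, 108500 to 124400 on Day 7 and 122800 to 137900 on Day 14, where the lowest array lay within the range of Day 7. Tie1, for a receptor tyrosine kinase of endothelium, had intensities of 746, 836, 1220 and 1008 on Day 7 and of 2352, 2248, 2205, 1602 and 1426 on Day 14, a change of 1.04 ± 0.20 (adjusted p = 0.0055). The transcription factor genes Sox18 and Sox17 rose by 0.78 ± 0.15 and 0.68 ± 0.10. Selp, for P-selectin, by which activated endothelium catches leukocytes, fell by 0.91 on the log2 scale (SE 0.18, adjusted p = 0.0078). It was between 444 and 662 on Day 7, between 201 and 391 on Day 14 and between 210 and 307 on Day 0.

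**Figure D3:**
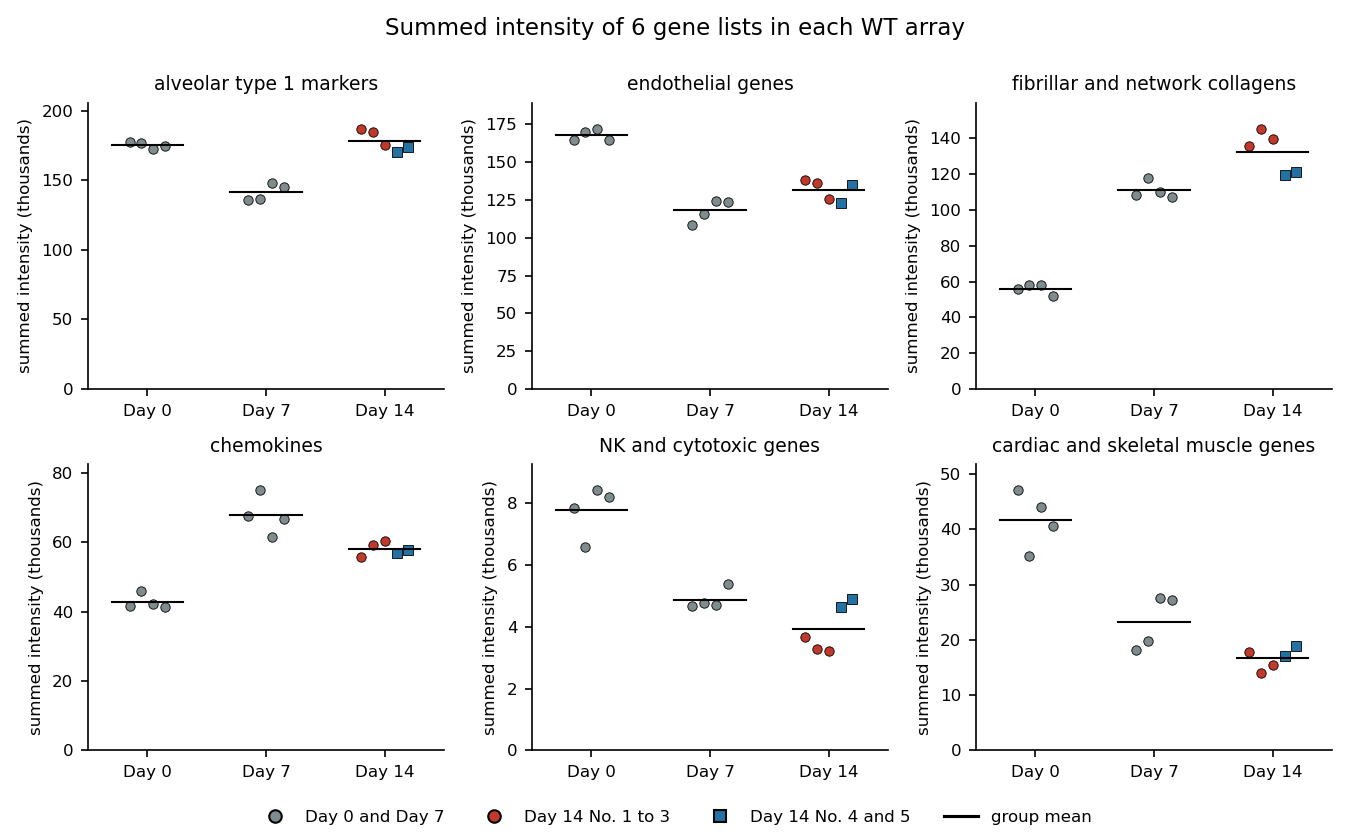
Summed intensity, on an axis in units of 1k, of the tested members of 6 gene lists in the WT arrays of Day 0, Day 7 and Day 14; points are arrays, blue squares are Day 14 No. 4 and 5, and bars are group means. Alveolar type 1 markers lie above Day 7 in all 5 Day 14 arrays, and the sum of NK and cytotoxic genes is 3209 to 3681 in Day 14 No. 1 to 3 and 4644 to 4888 in No. 4 and 5.

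Chemokine genes fell in part. Of 23 tested 5 fell and 0 rose, against 2.37% of all genes that fell, 1 of the 23 had a change above 0, and the median was -0.451. Ccl7 and Ccl2 encode the monocyte attractants MCP-3 and MCP-1. Ccl7 had intensities of 349, 532, 130 and 356 on Day 7 and of 73.1, 113, 105, 82.6 and 47.6 on Day 14, with 24.3 to 62.1 on Day 0. It fell by 1.92 on the log2 scale (SE 0.34, adjusted p = 0.0027) and passed in both sets, with -1.68 and -2.28. Ccl2 had intensities of 656, 1019, 423 and 733 on Day 7 and of 136, 202, 189, 262 and 233 on Day 14, and fell by 1.76 (SE 0.28, adjusted p = 0.0014). On Day 14 Ccl7 was still above Day 0 by 1.22 (adjusted p = 0.0070) and Ccl2 by 1.79 (adjusted p = 4.0e-05).

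Cxcl13, the attractant of B cells, fell by 1.32 (SE 0.26, adjusted p = 0.0068), Cxcl10, an interferon-induced attractant of T and NK cells, by 1.13 (SE 0.25, adjusted p = 0.012), and Cxcl17, a chemokine of mucosal epithelium, by 0.53 (SE 0.11, adjusted p = 0.0086). Cxcl10 had intensities of 909, 896, 700 and 1418 on Day 7 and of 389, 451, 430, 462 and 433 on Day 14, and the 5 Day 14 values lay close together. It was the sole member to fall among 25 interferon-stimulated genes, whose median change was -0.168. Its promoter is shown because it is the one promoter among the chemokine genes that fell to hold the interferon-stimulated response element searched for, GAAA, any 2 bases, then GAAA, on either strand. RefSeq gives a promoter window for 2 of the 5 genes, Cxcl10 and Cxcl13, and 3.44% of the 32851 windows of this length in the table hold this element. The window of Cxcl10 spans its start and lies at chr5:92348840-92349139 on the minus strand of GRCm38.p6, with the element in capitals 213 bases before the start.
Cxcl10: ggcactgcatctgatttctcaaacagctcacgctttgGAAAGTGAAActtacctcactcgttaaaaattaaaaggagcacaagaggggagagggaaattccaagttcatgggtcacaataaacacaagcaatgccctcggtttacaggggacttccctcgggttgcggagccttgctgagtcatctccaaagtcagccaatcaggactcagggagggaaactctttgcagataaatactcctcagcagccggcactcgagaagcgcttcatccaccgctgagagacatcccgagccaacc
A match describes the letters of the window and not a used site.

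Single genes of myeloid cells fell too, while the macrophage lists as a whole changed little. Ccl17, a chemokine of dendritic cells and alternatively activated macrophages, had intensities of 2494, 3520, 1275 and 1240 on Day 7 and of 567, 791, 953, 479 and 407 on Day 14, and fell by 1.67 (SE 0.34, adjusted p = 0.0078), in both sets. Of 15 alternative activation genes 3 fell and 0 rose (median -0.386), the other two being the lectin genes Clec10a (-0.94 ± 0.19) and Mgl2 (-0.73 ± 0.19). Of 19 monocyte and recruited macrophage genes 3 fell and 0 rose, with a median of -0.0694 that was 0.00902 in No. 1 to 3. They were Ccr2, the receptor of Ccl2, at -0.88 ± 0.20, Itgam, for the integrin CD11b, at -0.71 ± 0.19, and F13a1, for coagulation factor XIII, at -0.66 ± 0.16. The summed intensity of this list was 113200 to 128800 on Day 7, 123200 to 127500 in Day 14 No. 1 to 3 and 113400 to 115100 in No. 4 and 5. Of 20 lipid-handling macrophage genes 1 rose and 1 fell (median 0.217). Of 13 alveolar macrophage genes 0 passed by limma, 1 had an unadjusted p under 0.05, and the median was -0.0224. The Mgl2 call was lost without Day 7 No. 1 or 2 or Day 14 No. 1, 2 or 3 (0.106). The Ccr2 call was lost without Day 7 No. 1 or 2 (0.067). The Itgam call was lost without Day 7 No. 1, 2 or 4 or Day 14 No. 1, 2 or 3 (0.0797). The F13a1 call was lost without Day 7 No. 1 or 2 or Day 14 No. 1 (0.0881).

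Neutrophil genes had the lowest median of the lists, -0.638 over 14 genes, of which 3 fell and 0 rose. S100a9, for a subunit of calprotectin, had intensities of 1486, 2948, 1574 and 1726 on Day 7 and of 972, 555, 641, 804 and 799 on Day 14. Its Day 7 values overlapped those of Day 0 (1604 to 2596), and it fell by 1.33 to Day 14 (SE 0.36, adjusted p = 0.033). Il1r2, for the decoy receptor of interleukin 1, changed by -1.21 ± 0.31, and Trem1, for an activating receptor, by -0.69 ± 0.15. Il1b itself changed by -0.94 ± 0.25 (adjusted p = 0.032). The S100a9 call was lost without Day 7 No. 1, 2 or 4 or Day 14 No. 1, 2 or 3 (0.113). The Il1r2 call was lost without Day 7 No. 1 or 2 or Day 14 No. 1 or 3 (0.105). The Trem1 call was lost without Day 7 No. 1 (0.054). The Il1b call was lost without Day 7 No. 2 or 4 or Day 14 No. 1, 2 or 3 (0.122). Clec4e, for the macrophage receptor Mincle, had intensities of 340, 444, 285 and 534 on Day 7 and of 133, 127, 140, 160 and 175 on Day 14, and fell by 1.41 (SE 0.28, adjusted p = 0.0067). Cd80, for a costimulatory ligand of antigen-presenting cells, fell by 0.96 (SE 0.16) in both sets and on Day 14 was back between 77.8 and 115, where Day 0 lay between 77.1 and 112.

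Few lymphocyte genes were called, against 5.94% of all genes that passed, and the lists are too small to tell these shares apart. Of 16 T cell, 14 B cell and 11 plasma cell genes 0 passed over the 5 arrays by limma, with 2, 1 and 4 of them at an unadjusted p under 0.05. The median change of the plasma cell genes was 0.264, with 0.465 in No. 1 to 3 and 0.101 in No. 4 and 5, and 9 of the 11 were higher on Day 14. In NK and cytotoxic genes 1 of 18 fell, Klrd1, for the receptor chain CD94, at -0.66 ± 0.16 (adjusted p = 0.022). The call of Klrd1 without Day 7 No. 2 or 4 or Day 14 No. 1, 2 or 3 (0.0669) ended, with the highest adjusted p in brackets. The list's median was -0.488 in Day 14 No. 1 to 3 and 0.0255 in No. 4 and 5, and its summed intensity in No. 4 and 5 lay within the range of Day 7 (4659 to 5369) or just below it.

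Coagulation and fibrinolysis genes also fell in part. Of 12 tested 4 fell and 0 rose, 2 had a change above 0, and the median was -0.308, with -0.325 and -0.312 in the sets. F3, for tissue factor, which starts the clotting cascade, had intensities of 2443, 2105, 1684 and 1956 on Day 7 and of 1103, 1517, 1397, 1346 and 1163 on Day 14, and fell by 0.65 (SE 0.12, adjusted p = 0.0045). Plaur, for the urokinase receptor, changed by -0.63 ± 0.17, and Tfpi2, for a protease inhibitor of the Kunitz type, by -0.77 ± 0.22. F13a1, given above with the monocyte genes, is the fourth. The Plaur call was lost without Day 7 No. 1, 2 or 4 or Day 14 No. 1, 2 or 3 (0.108). The Tfpi2 call was lost without Day 7 No. 1 or 2 or Day 14 No. 1, 2 or 3 (0.146). Kng1, for the precursor of the kinin peptides, went up: it was at the floor of 24.3 in all 4 Day 0 arrays, had intensities of 40.2, 40.5, 49.5 and 39.5 on Day 7, and read 61.7, 161, 176, 188 and 160 on Day 14. Its change was 1.72 ± 0.30 (adjusted p = 0.0022), and it passed in both sets. These values lie near the floor, and with the floor at the 40th percentile the change was 0.92 (adjusted p = 0.0020), under the limit of 1 for a late gene given below.

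Of 25 immediate-early and heat-shock genes 3 fell and 0 rose (median -0.23), against 2.37% of all genes that fell. Hspa1b, for an inducible HSP70, had intensities of 2424, 2970, 2983 and 4222 on Day 7 and of 1160, 1335, 1401, 2187 and 2213 on Day 14, a change of -0.95 ± 0.26 (adjusted p = 0.034). Over all its probe sets the mean change was -0.59 and did not pass (adjusted p = 0.20). Hspe1 and Hspd1 encode the mitochondrial chaperonins HSP10 and HSP60, lie head to head and share a promoter. They changed by -0.41 ± 0.12 and -0.31 ± 0.08. The Hspa1b call was lost without Day 7 No. 1, 2, 3 or 4 or Day 14 No. 1, 2 or 3 (0.105). The Hspe1 call was lost without Day 7 No. 1, 2, 3 or 4 or Day 14 No. 1, 2 or 3 (0.13). The Hspd1 call was lost without Day 7 No. 1, 2 or 4 or Day 14 No. 1, 2 or 3 (0.102). The promoter of Hspe1 is shown because its heat-shock element also lies in a RefSeq window of Hspd1. The element searched for is GAA, any 2 bases, TTC, any 2 bases, GAA, on either strand, and 0.603% of the 32851 windows hold it. The window of Hspa1b in the table does not. The window of Hspe1 lies at chr1:55087898-55088197 on the plus strand of GRCm38.p6, and the capitals, which begin 89 bases before the start, are a pair of overlapping matches.
Hspe1: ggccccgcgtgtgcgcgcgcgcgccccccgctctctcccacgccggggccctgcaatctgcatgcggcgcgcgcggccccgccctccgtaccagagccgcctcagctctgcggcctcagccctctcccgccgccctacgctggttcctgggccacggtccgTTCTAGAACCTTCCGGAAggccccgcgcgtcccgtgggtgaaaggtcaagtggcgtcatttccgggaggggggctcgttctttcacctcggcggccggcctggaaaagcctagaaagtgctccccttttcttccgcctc
What binds there was not measured.

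Most genes of mitosis held their Day 7 level. Of 26 tested 0 passed between Day 7 and Day 14 by limma, with 2 at an unadjusted p under 0.05, and 21 of them rose by at least 1 to Day 7 and then held. Their summed intensity was between 3983 and 4581 on Day 0, between 15960 and 19410 on Day 7 and between 13080 and 16070 on Day 14. The median change was -0.308, and 1 of 26 was above 0. Cdc20, an activator of the anaphase-promoting complex, had intensities of 1816, 1934, 2164 and 2658 on Day 7 and of 1836, 2035, 1892, 2050 and 1810 on Day 14, with a change of -0.14 ± 0.20 (adjusted p = 0.68). Top2a, for topoisomerase II alpha, changed by -0.41 ± 0.25 (adjusted p = 0.31). DNA replication genes were also lower on Day 14 as a list. Their summed intensity was 13720 to 15500 on Day 0 and 25440 to 32010 on Day 7. It was 19780 to 22540 in Day 14 No. 1 to 3 and 21660 to 24600 in No. 4 and 5. The median change was -0.347, and 1 of 23 was above 0. In 10 of the 23 the Day 7 and Day 14 values did not overlap, against 11.3% of all genes. By limma 1 of the 23 fell, Cdt1, which licenses replication origins, at -0.57 ± 0.16 (adjusted p = 0.033). Over all probe sets of Cdt1 the mean change was -0.22 and did not pass (adjusted p = 0.13). The call of Cdt1 without Day 7 No. 1, 2, 3 or 4 or Day 14 No. 1, 2 or 3 (0.0944) ended, with the highest adjusted p in brackets.

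Heart muscle genes, which in mouse lung are read from the muscle sleeves of the pulmonary veins and from any heart tissue taken along, fell in part. Of 24 cardiac and skeletal muscle genes 5 fell and 0 rose (median -0.414). Nppa, for atrial natriuretic peptide, had intensities of 3056, 1602, 2011 and 1790 on Day 0, of 775, 872, 1251 and 1676 on Day 7 and of 378, 165, 517, 504 and 668 on Day 14. All Day 14 lungs lay below all Day 7 lungs, with a change of -1.43 ± 0.36 (adjusted p = 0.023). Sln and Pln, for sarcolipin and phospholamban, which inhibit the calcium pump, changed by -0.98 ± 0.22 and -0.85 ± 0.20, Ttn, for titin, by -0.89 ± 0.20 and Tnnt2, for cardiac troponin T, by -0.54 ± 0.15. Over all probe sets the mean change was -0.39 for Sln, which did not pass (adjusted p = 0.13), and -0.86 for Tnnt2. The other Ttn probe set above the filter changed by -0.11 ± 0.30 (unadjusted p = 0.71, limma). The Nppa call was lost without Day 7 No. 4 or Day 14 No. 1 or 2 (0.0713). The Pln call was lost without Day 7 No. 3 or 4 or Day 14 No. 1, 2 or 3 (0.0627). The Tnnt2 call was lost without Day 7 No. 1, 3 or 4 or Day 14 No. 1, 2 or 3 (0.111). The summed intensity of the list was 35230 to 47110 on Day 0, 18160 to 27530 on Day 7, and 13990 to 18880 on Day 14. The part that the amount of such tissue in each sample has in these values was not tested.

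**Figure D4:**
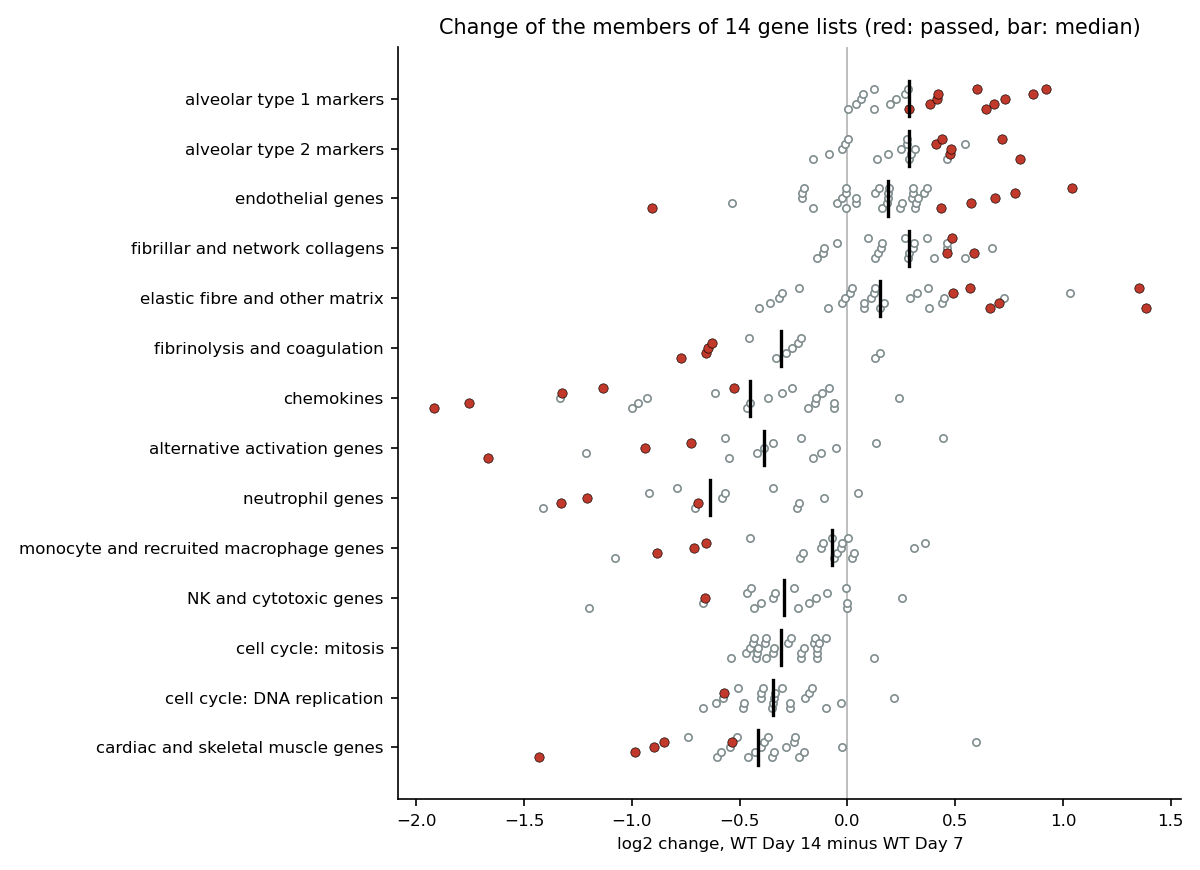
Each point is a tested member of 1 of 14 gene lists at its log2 change from Day 7 to Day 14; red points passed, open points did not, and black bars are list medians. The 20 alveolar type 1 markers all lie above 0, and 1 of 23 chemokine genes, 1 of 14 neutrophil genes and 1 of 26 mitosis genes does.

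To follow the course of single genes, those that differed between Day 7 and Day 0 by at least 1 on the log2 scale and passed were taken, 490 up and 196 down, out of 4236 genes that passed between these days (35.1%). This comparison and that of Day 14 against Day 7 share the 4 Day 7 arrays, so noise in those arrays enters both. A gene turned back where it passed in the opposite direction, went further where it passed in the same direction, and held where it did not pass and the 95% interval of its change lay within 1 of 0. By these rules 345 of the 490 held up, 106 were unresolved, 36 turned back and 3 went further. Of the 196 that were down, 134 held, 40 were unresolved, 18 turned back and 4 went further. A narrower limit of 0.5 left 68 and 23 as held. With the genes chosen in FP-KO lungs, which share no array with the WT lungs, 23 turned back from up, 3 turned back from down and 1 went further.

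Of the genes that turned back, 5 that had been up and 6 that had been down were back at the level of Day 0, meaning that Day 14 did not pass against Day 0 and the 95% interval of that difference lay within 1 of 0. Ankrd1, for a stress-induced protein of heart and muscle that is also a target of YAP, was one of them. It had intensities of 932, 873, 979 and 974 on Day 0, of 2637, 2510, 1543 and 1841 on Day 7 and of 706, 892, 1108, 1104 and 712 on Day 14. It changed by -1.23 ± 0.19 (adjusted p = 0.00068) over all 5 arrays, and by -1.23 in each set. Gpr171, for a receptor found on lymphocytes, was between 623 and 910 on Day 7 and between 124 and 370 on Day 14, a change of -1.49 ± 0.27 (adjusted p = 0.0035). Slfn4 changed by -1.11 ± 0.31 and Ackr3, for a scavenging receptor of chemokines, by -0.66 ± 0.18. The Slfn4 call was lost without Day 7 No. 2 or 4 or Day 14 No. 1, 2, 3 or 4 (0.121). The Ackr3 call was lost without Day 7 No. 1, 2 or 4 or Day 14 No. 1, 2 or 3 (0.126). The fifth, Selp, is described above. Those that had been down were Thbs3, Cdh16, Prss29, Bcan, Lgi3 and Hey1. Cdh16, for kidney-specific cadherin, was between 199 and 346 on Day 0, between 60.1 and 125 on Day 7 and between 156 and 247 on Day 14, a change of 1.20 ± 0.22. Hey1, a target of Notch signalling, rose by 0.85 ± 0.14 and Lgi3, for a secreted protein, by 0.97 ± 0.17. Prss29, for a serine protease, rose by 1.10 ± 0.27 and Bcan, for the proteoglycan brevican, by 0.98 ± 0.29. With the floor at the 40th percentile the change of Prss29 was 0.37 and did not pass (adjusted p = 0.24). The Prss29 call was lost without Day 7 No. 2 or 4 or Day 14 No. 3 (0.068). The Bcan call was lost without Day 7 No. 1 or 2 or Day 14 No. 1, 2, 3 or 5 (0.166).

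Further genes turned back. AA467197, also known as Nmes1, had intensities of 92.4 to 155 on Day 0, of 1411, 1818, 926 and 1141 on Day 7 and of 359, 482, 481, 578 and 456 on Day 14, a change of -1.46 ± 0.27 (adjusted p = 0.0034). Chrna7, for the α7 nicotinic receptor, was between 269 and 604 on Day 7 and between 135 and 202 on Day 14, a change of -1.32 ± 0.29 (adjusted p = 0.012). Susd5, for a membrane protein, was lowest on Day 7, at 167, 43.0, 64.9 and 35.8, and read 338, 188, 349, 169 and 172 on Day 14, with 109 to 230 on Day 0. It rose by 1.85 ± 0.42 (adjusted p = 0.015). The Chrna7 call was lost without Day 7 No. 1 or 2 (0.0601). The Susd5 call was lost without Day 7 No. 2 or 4 or Day 14 No. 1 (0.0593).

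Among the genes that held, the 6 with the largest rise to Day 7 were Slfn9, Thbs4, Ereg, Lama1, Wfdc17 and Nuf2. A held gene can still have moved by less than the limit. Nuf2 was between 461 and 540 on Day 7 and between 313 and 396 on Day 14, without overlap, a change of -0.46 ± 0.25. Thbs4, for thrombospondin 4, and Lama1, a laminin chain of early basement membranes, were at the floor of 24.3 in all Day 0 arrays. Thbs4 had intensities of 271, 263, 216 and 168 on Day 7 and of 162, 382, 373, 180 and 130 on Day 14, and its change was -0.02 ± 0.33. Ereg, for the growth factor epiregulin, had intensities of 350, 293, 131 and 202 on Day 7 and of 196, 204, 204, 282 and 184 on Day 14, and its change was -0.11 ± 0.35. Wfdc17, for a secreted antiprotease-like protein of macrophages, was between 2905 and 4090 on Day 7 and between 2697 and 3416 on Day 14, and between 391 and 546 on Day 0. The 6 with the largest fall were Gria1, Acaa1b, Chrdl1, Slc5a12, Ankrd63 and Gnmt. Chrdl1, for an inhibitor of BMP signalling, was between 275 and 334 on Day 0, between 52.7 and 114 on Day 7 and between 65.2 and 122 on Day 14.

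Few genes went further in the direction of Day 7. The 3 that rose further were Mmp2, Ltbp2 and Phex. Ltbp2 had intensities of 3308, 3586, 2497 and 2645 on Day 7 and of 4750, 5438, 5693, 4244 and 4260 on Day 14, with 807 to 1245 on Day 0. Phex, for an endopeptidase that controls phosphate and mineral in bone, was between 157 and 256 on Day 0, between 432 and 468 on Day 7 and between 600 and 1093 on Day 14, a change of 0.84 ± 0.23. The call of Phex without Day 7 No. 1, 2, 3 or 4 or Day 14 No. 1, 2 or 3 (0.105) ended, with the highest adjusted p in brackets. The 4 that fell further were Cox8b, a cytochrome oxidase subunit of muscle and brown fat, at -1.16 ± 0.31, Gsta2, a glutathione transferase, at -0.97 ± 0.22, Fgfbp1, a carrier of fibroblast growth factors, at -0.69 ± 0.15, and Ms4a4d at -0.58 ± 0.16. Gsta2 had intensities of 386, 285, 399 and 726 on Day 7 and of 177, 191, 214, 225 and 283 on Day 14. The groups of Cox8b and Ms4a4d overlapped. The Cox8b call was lost without Day 7 No. 2, 3 or 4 or Day 14 No. 2 or 3 (0.0871). The Ms4a4d call was lost without Day 7 No. 1, 3 or 4 or Day 14 No. 1, 2 or 3 (0.101). Cox8b is 1 of 11 adipocyte genes tested, whose median change was -0.351 and whose summed intensity was 8267 to 19020 on Day 0, 5287 to 6259 on Day 7 and 3893 to 5338 on Day 14; the part of fat tissue in the Cox8b value was not tested. None of these 7 passed in each set.

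**Figure D5:**
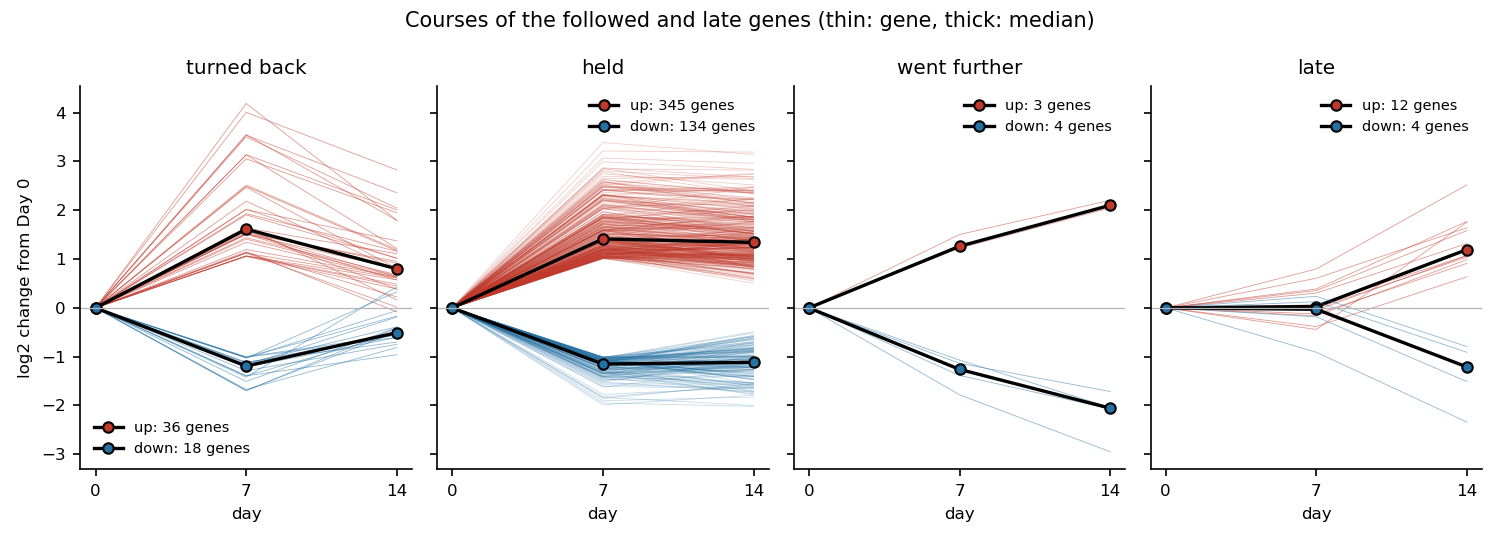
Mean log2 change from Day 0 on Day 7 and Day 14 in WT lung for the genes that turned back, held, went further or were late; thin lines are genes (red up, blue down) and thick lines are medians. The 345 and 134 genes that held stay near their Day 7 level, and the 16 late genes change by at least 1 between Day 7 and Day 14.

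Genes were called late where they did not pass between Day 0 and Day 7, and then passed between Day 7 and Day 14 with a change of at least 1. Genes that did not pass by Day 7 could still have moved by then. Kng1 had changed by 0.80 from Day 0 to Day 7 (adjusted p = 0.051, limma) and Nppa by -0.91 (adjusted p = 0.064, limma). There were 12 late rises and 4 late falls. The rises were C1qtnf3, Kng1, Fmod and Lamb3, described above, and Nnat, Rgs5, Lbh, Wdfy1, Cchcr1, Mrc2, Rab3c and Matn4, and 5 of the 12 passed in each set. Nnat, for the small membrane protein neuronatin, had intensities of 435, 555, 482 and 464 on Day 7 and of 1380, 1330, 1119, 824 and 1092 on Day 14, with 369 to 388 on Day 0. Its change was 1.23 ± 0.16 (adjusted p = 0.00024), and it passed in both sets (1.40 and 0.98). Rgs5, for a regulator of G-protein signalling that marks pericytes, was between 414 and 590 on Day 7 and read 1199, 1404, 1308, 878 and 692 on Day 14, a change of 1.15 ± 0.19 with a difference between sets (adjusted p = 0.042). Lbh, for a target of Wnt signalling, read 2906, 2918, 2431, 1497 and 1426 on Day 14 against 758 to 1144 on Day 7, a change of 1.12 ± 0.29 that also differed between sets (adjusted p = 0.040). The other Lbh probe sets above the filter changed by 0.78 ± 0.50 and -0.24 ± 0.16, and the mean over all its probe sets by 0.55, which did not pass (adjusted p = 0.14). Wdfy1, for an endosomal adaptor, rose in No. 1 to 3 alone: it read 1005, 899 and 845 there, 351 and 328 in No. 4 and 5, and 274 to 318 on Day 7, and the sets differed (adjusted p = 6.1e-06). The Lbh call was lost without Day 7 No. 1 or 2 or Day 14 No. 1, 2 or 3 (0.0879). The Wdfy1 call was lost without Day 7 No. 1 or 2 or Day 14 No. 1, 2 or 3 (0.0727).

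The late falls were Nppa and S100a9, described above, and Ms4a4c and Bnc2. Ms4a4c, of a family of membrane proteins of leukocytes, had intensities of 663, 738, 747 and 1245 on Day 7 and of 398, 340, 335, 486 and 467 on Day 14, a change of -1.04 ± 0.19 (adjusted p = 0.0029). Bnc2, for a zinc finger protein of fibroblasts and other mesenchymal cells, read 197, 227 and 186 in Day 14 No. 1 to 3, 416 and 457 in No. 4 and 5, and 521 to 622 on Day 7. Its change was -1.03 ± 0.29, and the sets differed (adjusted p = 0.0011). The call of Bnc2 without Day 7 No. 1, 2, 3 or 4 or Day 14 No. 1, 2 or 3 (0.11) ended, with the highest adjusted p in brackets.

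Single members of further lists also passed, 1 or 2 in each, against 5.94% of all genes. Such counts say little about the lists themselves. Of 18 NRF2 and glutathione genes 2 fell, Gsto1, for an omega glutathione transferase, at -0.45 ± 0.08 in both sets and Mgst1, for a membrane-bound one, at -0.30 ± 0.06. Of 17 clock genes 1 rose, Tef, for a D-box binding factor with a daily rhythm, at 0.62 ± 0.14 (adjusted p = 0.014). The other Tef probe sets changed by 0.82 ± 0.34 and -0.62 ± 0.32, and the mean over all by 0.27, which did not pass (adjusted p = 0.27). The call of Tef without Day 7 No. 1 or 2 (0.0656) ended, with the highest adjusted p in brackets. Of 17 prostanoid genes 1 rose and 1 fell. Ptgs2, for the inducible cyclooxygenase COX-2, had intensities of 815, 932, 673 and 737 on Day 7 and of 541, 450, 467, 585 and 474 on Day 14, a change of -0.65 ± 0.12 (adjusted p = 0.0050). The other Ptgs2 probe set, also above the filter, changed by -0.22 ± 0.19 (unadjusted p = 0.28, limma). Tbxa2r, for the thromboxane receptor, rose by 0.66 ± 0.16. The call of Tbxa2r without Day 7 No. 1 or 2 or Day 14 No. 1 or 2 (0.0789) ended, with the highest adjusted p in brackets. Ptgfr, the gene of FP itself, did not pass: it had intensities of 145, 127, 226 and 196 on Day 7 and of 175, 134, 162, 190 and 257 on Day 14, with 250 to 361 on Day 0, and its change of 0.09 ± 0.23 (adjusted p = 0.84) has a 95% interval from -0.38 to 0.55.

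In FP-KO lung 2742 genes passed between Day 7 and Day 14 (22.7%), over all 4 Day 14 arrays, which are split as given above. A test of the difference between the genotypes' changes called 1 of 12062 genes (0.00829%). This was Ifi44l, an interferon-stimulated gene that is also a close neighbour of Ptgfr, the gene of FP. Its changes were -0.17 ± 0.10 in WT and -1.22 ± 0.11 in FP-KO lung. In WT it was at the floor of 24.3 in 7 of the 9 arrays. The part of the altered Ptgfr locus in this difference was not tested. In all, 931 genes had an unadjusted p under 0.05 in the test between genotypes. None of the genes named here other than Ifi44l passed that test. Values in FP-KO lung were -2.70 ± 0.30 for Ccl2, -2.47 ± 0.26 for Cxcl10, -2.78 ± 0.42 for Sprr1a and -2.38 ± 0.28 for Timp1, and 0.66 ± 0.28 for C1qtnf3, 0.41 ± 0.18 for Fmod and 0.27 ± 0.17 for Nnat. For these genes the adjusted p of the difference between genotypes lay between 0.39 and 0.92 (limma). Other genes were closer to WT, with 1.24 ± 0.30 for Lbh, 1.03 ± 0.21 for Tie1, -1.85 ± 0.36 for Ccl17 and -0.63 ± 0.13 for Ptgs2. For Ankrd1 the value in FP-KO lung was -0.64 ± 0.20, and its difference from the change in WT did not pass (adjusted p = 0.61, limma).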

How the data were processed

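The authors deposited 1 linear intensity per probe set and array, and the trimmed mean of every array, 2% cut at each end, is 500 in the deposited values. Their software: not given in the sources used here. RNA labelling started from 6 ug, per the labels' protocols. Groups and numbers come from the sample titles.

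Values were floored at 24.3 (20th percentile), taken to log2 and, since array medians (6.81 to 7.24) ranged over 0.432, more than the limit of 0.3, quantile-normalized. Probe sets with 1 gene symbol were used, the one of highest mean per gene (18193 genes), and tested were the 12062 whose value exceeded the median of its array on 4 or more arrays. limma 3.58.1 under R 4.3.3 gave two-sided tests from 1 model of the 6 group means (25 arrays; lmFit, eBayes), with Benjamini-Hochberg adjusted p under 0.05. A fit on 8 group means split Day 14 No. 1 to 3 from the rest. No covariate was used, and all arrays share 1 spread per gene. The fit was tested on simulated data. Plots come from matplotlib 3.10.9 (python 3.11.15).

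Promoter windows are from RefSeq (GRCm38.p6). Motifs were searched on both strands. The number of arrays limits the precision.

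The comparison, the 49 gene lists and the tests were chosen with earlier results of these data known. The rule for naming took, of genes that passed without overlap, the 12 largest rises and 12 largest falls; also 6 per course, up to 4 members per list that passed, Ptgfr, and 2 of highest mean where no list member passed. Named outside this rule, after their values were seen, were Col1a1, Lamb3, Dag1, Ager, Aqp5, Sparc, Aspn, Tnnt2, Cxcl17, Sftpc and Ifi44l, the genes that passed in both sets, and the other late rises. Tried as alternatives were no normalization, a common median, a lower and a higher floor, other filters, a pseudocount of 16, the mean of probe sets, fewer arrays, trend with robust eBayes, array weights, a replicate block, other course limits, and leaving out each array. Whether equal numbers pair the mice was checked in the data.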

Additional observations from a re-analysis of the deposited data

Results flagged for a closer look

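For 112 of the genes named, each array was compared with the others of its group of 4 or 5 WT lungs, on Day 0, Day 7 and Day 14, and a value was picked out where its gap to the nearest other array was large for the group's range (Dixon's test at 95%). Chance picks out about 1 group in 20, and here it was 12 of 336 groups.

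On Day 14, Kng1 was low in No. 1 (61.73), Ackr3 and Tfpi2 were low in No. 1 (1172 and 270), Col4a2 was low in No. 5 (8987), and Ereg was high in No. 4 (281.9). On Day 7, Kng1 was high in No. 3 (49.5) and Col4a5 in No. 4 (4070). On Day 0, Plaur was low in No. 1 (818), Ppp1r14c was high in No. 4 (2393), Slfn9 in No. 1 (31.66), Tgfb3 in No. 3 (871.1) and Trem1 in No. 2 (211.9). Day 14 No. 1 had 3 of these values, the most of any array, and every Kng1 value of Day 14 still lay above every value of Day 7.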

How the results depend on the processing

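No call among the results tried changed direction. Single genes were tried in these settings for 94 of the named genes that passed. Not tried were Sparc, Aspn, Dis3, Myh14, Nxpe4, Cdk19, Ptprm, Cyb5r3, Ube2h, Cchcr1, Mrc2, Rab3c and Matn4. Of the 94, 49 passed with each of the 9 arrays left out in turn, and 14 kept their call in every setting in which they were tested: Ankrd1, C1qtnf3, Ccl17, Ccl7, Cd80, Dag1, Fmod, Gsto1, Kng1, Lama3, Lamb3, Nnat, Rtkn2 and Thbs3. Kng1 and Cd80 did not pass the filter that asks for all WT Day 7 or all WT Day 14 arrays, or the filter with the mean of probe sets, and Ccl7 not the former, so these gave no value there. The call was lost by 80 of the 94 with Day 14 No. 4 and 5 alone, 25 with the 9 arrays apart, 20 without a filter, 19 with a common median, 11 with the mean of probe sets, 8 with the 13 WT arrays and 5 as deposited, and the cause was not tested.

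The numbers that passed, rose and fell, 716, 430 and 286 as reported, were 3545, 1809 and 1736 with array weights, 1372, 760 and 612 with 8 group means, 3115, 1578 and 1537 with Day 14 No. 1 to 3 alone, 21, 15 and 6 with No. 4 and 5 alone, and 440, 253 and 187 with the 9 arrays normalized and fitted apart. With a common median 448 passed and 78 fell. Leaving out 1 array gave 193 to 1445 that passed, 120 to 812 that rose and 73 to 633 that fell. The number that turned back (54) was 148 with array weights, 82 with 8 group means, 98 and 4 in the sets, 99 with the 13 WT arrays, 26 with genes chosen in FP-KO lung, and 22 to 86 with 1 array left out. The number that went further (7) was 3 without a filter, 12 with the 13 WT arrays, 38 with array weights, 29 and 0 in the sets, 20 with the replicate block, 1 with genes chosen in FP-KO lung, and 3 to 17 with 1 array left out. The number of late genes (16) was 87 with array weights, 121 and 2 in the sets, 61 with the replicate block, and 6 to 59 with 1 array left out. The number that held (479) was 232 with genes chosen in FP-KO lung, 91 with a limit of 0.5, and 413 to 488 with 1 array left out. The cause of these shifts was not tested.

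No pairing of the mice by number was seen: deviations of WT Day 7 and Day 14 mice of equal number correlated at -0.0588, 0.0766, -0.12 and 0.0696. These 4 values cannot settle whether arrays share a structure by number, since the arrays of each day fall into sets. On the first component FP-KO Day 7 No. 1 and 2 lay at 25 and 24.4, and No. 3 and 4 at 12.3 and 2.56. With the number as a replicate block 1551 genes passed, 861 rose and 690 fell, in a fit to which WT Day 14 No. 5 adds nothing. Depth does not apply to arrays; intensities near the floor of 24.3 have no order.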
